A study of Mus musculus with 24 samples.

Results

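The collagen genes were taken as every protein-coding gene of the count files whose symbol is Col, a number, the letter a and a number, which gave 44 genes of 21983 protein-coding genes and 54232 gene identifiers in all. Their RNA was measured in 24 libraries of cells sorted from stromal cultures of bone marrow after 7 days in culture; the donor mice were C57BL/6 females aged 6 to 8 weeks. The 4 groups were KI hematopoietic, WT hematopoietic, KI mesenchymal and WT mesenchymal cells, with 6 libraries each. KI denotes Sh3bp2KI/KI, homozygous for a knock-in allele and the cherubism model of the series, and WT denotes wild type. All cultures grew in MEM-alpha medium with 10% serum and antibiotics, and the labels name no other agent. Sh3bp2 encodes an adaptor protein of immune receptor signalling, and human mutations in it cause cherubism, a disease of the jaw bones. Cells with CD45 and Sca1 on their surface were taken as hematopoietic, and cells with Sca1 but without CD45 as mesenchymal. No label ties the replicates to separate animals or separate cultures. The p-values below therefore reflect the spread among these particular libraries, which may be technical in part.

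Collagens are triple-helical proteins of the extracellular matrix. Fibrillar collagens such as types I, III and V assemble into the fibers of bone, tendon and skin, and fibril-associated collagens coat those fibers. Type IV collagen forms the sheet-like mesh of basement membranes, and the multiplexins, types XV and XVIII, sit next to it. Type VI collagen makes beaded filaments around cells, and types VIII and X make hexagonal networks. In bone marrow, type I collagen is the main product of osteoblasts and of their stromal precursors, while basement membrane collagens surround the blood sinuses and fat cells.

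All 24 libraries held 9875390 to 15826711 counts. The labels of the populations fitted their markers: the leukocyte gene Ptprc, which encodes CD45, averaged 749 ± 83.04 CPM (counts scaled to a common library size, with trimmed mean of M-values normalization) in KI hematopoietic and 793 ± 71.3 in WT hematopoietic libraries, against 3.13 ± 2.01 in KI mesenchymal and 2.98 ± 1.86 in WT mesenchymal libraries (SD, n = 6 each). Sh3bp2 RNA averaged 233 ± 36.5 CPM in KI and 211.9 ± 25.6 in WT hematopoietic libraries, and 7.58 ± 0.915 CPM in KI and 7.42 ± 0.696 in WT mesenchymal libraries. It did not pass the test between genotypes in either population, and a gene count cannot show which allele was expressed. The first digit of a code in the names of the deposited files split each group into 3 libraries and 3 libraries (replicates 1 to 3 and 4 to 6); no label says what it marks, and it is called the name prefix here.

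Of the 44 genes, 30 passed the filter on low counts in hematopoietic libraries, 35 in mesenchymal libraries and 37 when all 24 libraries were fitted together. The 7 that passed nowhere were Col4a3, Col4a4, Col4a6, Col9a1, Col9a2, Col17a1 and Col26a1, and none of them exceeded 17 counts in any library. Type IV collagen was therefore represented by Col4a1, Col4a2 and Col4a5 alone.

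Sequences just upstream of the start sites are shown for 6 of the 10 collagen genes called between genotypes: the 3 that rose in KI hematopoietic libraries and the 3 that fell furthest in KI mesenchymal libraries. They come from RefSeq on GRCm38.p6, run 5′ to 3′ along the transcribed strand and leave out bases that the GENCODE annotation places in an exon. The stretches are chr10:77166549-77166780 for Col18a1 (minus strand), chr4:63215162-63215411 for Col27a1 (plus), chr1:24587473-24587687 for Col19a1 (minus), chr6:8192618-8192867 for Col28a1 (minus), chr4:47207762-47208011 for Col15a1 (plus) and chrX:141475169-141475384 for Col4a5 (plus). The Col27a1 stretch precedes the RefSeq start and lies in an intron of the GENCODE gene, whose first start is farther upstream. Capitals mark matches to a CCAAT box (CCAAT or ATTGG) or a GC box (GGGCGG or CCGCCC). Col18a1 has another RefSeq start, and the 250 bases before it (chr10:77113706-77113955) are not shown because 241 of them lie in a Col18a1 exon. They hold no CCAAT or GC box. A gene count cannot show which start was used.
Col18a1: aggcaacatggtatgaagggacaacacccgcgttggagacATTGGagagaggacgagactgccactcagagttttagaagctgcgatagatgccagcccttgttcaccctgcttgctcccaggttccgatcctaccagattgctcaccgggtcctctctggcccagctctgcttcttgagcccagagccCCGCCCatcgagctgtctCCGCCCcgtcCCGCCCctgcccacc
Col27a1: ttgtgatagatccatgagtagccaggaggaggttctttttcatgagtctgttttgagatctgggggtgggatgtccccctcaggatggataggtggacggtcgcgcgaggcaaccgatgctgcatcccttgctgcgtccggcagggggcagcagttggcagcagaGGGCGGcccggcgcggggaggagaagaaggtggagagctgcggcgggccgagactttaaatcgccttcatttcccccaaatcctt
Col19a1: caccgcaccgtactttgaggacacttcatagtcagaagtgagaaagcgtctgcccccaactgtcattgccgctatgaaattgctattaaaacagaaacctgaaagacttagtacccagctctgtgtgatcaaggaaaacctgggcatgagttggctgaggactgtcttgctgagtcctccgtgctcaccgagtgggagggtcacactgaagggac
Col28a1: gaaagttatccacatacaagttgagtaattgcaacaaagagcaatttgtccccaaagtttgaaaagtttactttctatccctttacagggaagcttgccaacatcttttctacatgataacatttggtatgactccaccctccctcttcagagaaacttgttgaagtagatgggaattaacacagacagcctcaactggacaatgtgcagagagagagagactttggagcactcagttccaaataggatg
Col15a1: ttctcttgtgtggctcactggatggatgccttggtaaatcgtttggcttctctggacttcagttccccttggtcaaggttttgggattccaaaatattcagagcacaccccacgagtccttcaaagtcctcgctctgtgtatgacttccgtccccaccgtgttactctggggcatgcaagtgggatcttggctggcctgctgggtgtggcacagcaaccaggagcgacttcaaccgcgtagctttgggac
Col4a5: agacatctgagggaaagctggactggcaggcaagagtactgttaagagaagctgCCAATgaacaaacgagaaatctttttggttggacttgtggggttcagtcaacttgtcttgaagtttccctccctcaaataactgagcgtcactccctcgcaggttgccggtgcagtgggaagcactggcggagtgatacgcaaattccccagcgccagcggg
The Col18a1 stretch held 3 GC boxes and 1 CCAAT box, the Col27a1 stretch 1 GC box, the Col4a5 stretch 1 CCAAT box, and the stretches of Col19a1, Col28a1 and Col15a1 held no match. The full 250 bases before the Col4a5 start also hold a GC box. It is not within the stretch shown, which leaves out 34 exon bases. In GC content the Col18a1 stretch had 60.8% and the Col27a1 stretch 59.6%, against 40.4% for Col28a1. Over the 250 bases before each annotated start, 38 windows covered 35 of the 44 collagen genes. A GC box stood in 22 of the 38 windows (57.9%), against 32.7% of the 32841 mouse windows of the same kind, and a CCAAT box in 34.2%, against 33.9%. Shares for the TATA box (TATAAA or TTTATA) were 13.2% and 12.4%, for the AP-1 motif (TGACTCA or TGAGTCA) 2.63% and 4.46%, and for the NFAT core (TGGAAA or TTTCCA) 10.5% and 18.6%. The E-box CACGTG stood in 0 of the 38 windows and in 6.02% of all windows. Both strands were searched, no motif contains another, and a match is a description of letters, not a site of binding.

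Collagen RNA made up 5.67 ± 1.56% of the counts in KI mesenchymal and 5.17 ± 1.08% in WT mesenchymal libraries, against 0.699 ± 0.401% in KI hematopoietic and 0.663 ± 0.380% in WT hematopoietic libraries (SD, n = 6 each). The genotypes overlapped in both populations, and every mesenchymal library was above every hematopoietic one. Fibrillar genes supplied 73.3 ± 3.07% of the collagen counts in KI and 69.6 ± 5.05% in WT mesenchymal libraries. Beaded-filament genes supplied 10.5 ± 0.776% in KI and 12.1 ± 0.406% in WT, and fibril-associated genes 11.4 ± 1.67% in KI and 11.01 ± 1.92% in WT. Type IV genes supplied 2.70 ± 1.06% of collagen counts in KI and 4.01 ± 1.42% in WT mesenchymal libraries. In bulk samples, fewer cells of a type and less RNA per cell cannot be told apart, here or in any result that follows.

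Levels of different genes were compared as CPM per kb of annotated exon. Col1a1 stood highest in all 4 groups. It encodes the more abundant chain of type I collagen, the main fiber protein of bone. Its mean level was 2792 ± 991 CPM per kb in KI and 2395 ± 854 in WT mesenchymal libraries. Its partner chain Col1a2 came next, with 874 ± 265 CPM per kb in KI and 769.7 ± 214 in WT mesenchymal libraries. Below them, the level of Col5a1, a type V chain that sets fibril width, was 566 ± 171 CPM per kb in KI and 447 ± 97.2 in WT mesenchymal libraries. The next genes, Col12a1, Col6a1, Col3a1, Col5a2 and Col6a3, averaged between 268 and 411 CPM per kb in KI mesenchymal libraries, and the first 4 of them differed from their neighbors in that order by less than their SDs. Col6a2 had 133 ± 43.6 CPM per kb in KI and 138 ± 30.7 in WT mesenchymal libraries. Col8a1 had 118 ± 25.3 CPM per kb in KI and 173 ± 54.1 in WT mesenchymal libraries, and Col4a1 113 ± 18.8 in KI and 159 ± 21.7 in WT.

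**Figure D1:**
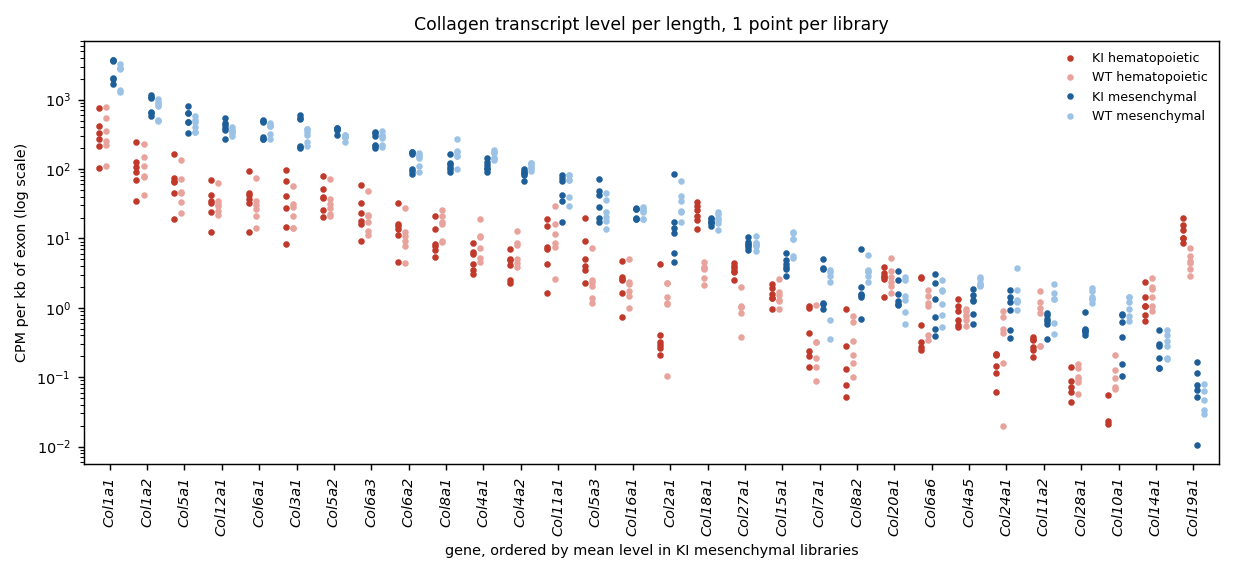
Collagen transcript level per length (CPM per kb of exon, log axis) in each library, for the 30 collagen genes averaging at least 1 CPM per kb in some group, ordered by the KI mesenchymal mean, with KI left of WT in each population; libraries with 0 counts are not drawn. Most genes lie higher in mesenchymal libraries (blue). Col14a1 and Col19a1 at the far right, and Col18a1 in KI only, lie at or above that level in hematopoietic libraries (red). Col20a1 also averages higher in hematopoietic libraries, with overlap.

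Mesenchymal libraries of both genotypes fell into high and low sets for type I collagen. Col1a1 had 11099, 18605 and 24521 CPM (lowest, median and highest) in KI and 8403, 18342 and 21468 CPM in WT mesenchymal libraries. KI replicates 1, 2 and 6 and WT replicates 1 and 2 were low, at 13338, 12846 and 11099 CPM for KI and 8904 and 8403 CPM for WT, while the other 7 libraries had 17961 CPM or more. Col1a2 had 7302, 10816 and 14684 CPM in KI and 6175, 10400.4 and 12573 CPM in WT mesenchymal libraries, with the same 5 libraries lowest. Neither Col1a1 (log2 fold change, KI over WT, 0.26, SE 0.26, adjusted p = 0.606) nor Col1a2 (0.22, SE 0.20, adjusted p = 0.570) passed edgeR's quasi-likelihood test (Benjamini-Hochberg adjusted).

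Some chain ratios were alike in all 4 groups and others were not. The ratio of Col1a1 to Col1a2, per kb, was 3.15 ± 0.218 in KI mesenchymal and 3.04 ± 0.364 in WT mesenchymal libraries, and 3.09 ± 0.0831 in KI and 3.15 ± 0.396 in WT hematopoietic libraries. For Col6a1 to Col6a2, chains of type VI collagen, it was 2.93 ± 0.133 in KI and 2.82 ± 0.121 in WT mesenchymal libraries, and 2.82 ± 0.151 in KI and 2.85 ± 0.193 in WT hematopoietic libraries. Col5a3 to Col5a1 was 0.0973 ± 0.0290 in KI and 0.0470 ± 0.0126 in WT hematopoietic libraries, and 0.0653 ± 0.0222 in KI and 0.0566 ± 0.0152 in WT mesenchymal libraries. Col11a1 to Col11a2 averaged 29.3 ± 18.3 in KI and 14.5 ± 6.25 in WT hematopoietic libraries, against 79.9 ± 32.6 in KI and 54.4 ± 13.1 in WT mesenchymal libraries. The KI hematopoietic ratio reached 53.1, above the lowest mesenchymal ratios of 47.9 in KI and 36.4 in WT. These ratios depend on the length given to each gene, which is the same in every group, so they compare groups and not amounts of chain.

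In hematopoietic libraries, 3 collagen genes rose in KI against WT and 1 fell. Col18a1 rose by log2 2.79, Col27a1 by log2 1.83 and Col19a1 by log2 1.47; Col11a2 fell. These 4 calls are 13.3% of the 30 tested collagen genes, beside 15.9% of all 14030 genes tested; the 3 rises stand beside 9.01% of all genes called higher and the 1 fall beside 6.89% called lower. The median log2 fold change of the tested collagen genes was 0.05, beside -0.0048 over all genes. The share of calls was near the background share.

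Col18a1 encodes type XVIII collagen, a basement membrane proteoglycan whose cleaved end is endostatin; it lies on GRCm38 at chr10:77052178-77166548. It had 97.6, 163 and 236 CPM (lowest, median and highest) in KI hematopoietic libraries and 14.9, 25.8 and 32.1 CPM in WT hematopoietic libraries. Every KI library was above every WT library, as for 4.61% of all genes in that direction. The difference was 2.79 on the log2 scale (SE 0.19, edgeR's quasi-likelihood test, Benjamini-Hochberg adjusted p = 7.55e-06). Within name prefix 1 it was 2.86 (adjusted p = 0.00206) and within prefix 2 it was 2.74 (0.0169). In mesenchymal libraries the groups overlapped, with 108, 122 and 138 CPM in KI and 91.9, 133 and 166 CPM in WT (log2 -0.11, SE 0.13, adjusted p = 0.682). Per kb, Col18a1 was 23.6 ± 7.26 CPM in KI hematopoietic and 3.44 ± 0.876 in WT hematopoietic libraries.

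Col27a1 encodes a fibrillar collagen best known from cartilage (chr4:63214004-63334991). KI hematopoietic libraries had 32.6, 46.9 and 56.8 CPM and WT hematopoietic libraries 4.93, 13.4 and 26.04 CPM, with no overlap; WT replicate 3 was the highest of its group and WT replicate 6 the lowest. The log2 fold change was 1.83 (SE 0.27, edgeR adjusted p = 8.95e-04), with 1.46 in prefix 1 (adjusted p = 0.0545) and 2.22 in prefix 2 (0.0334). In mesenchymal libraries it had 89.3, 106 and 137 CPM in KI and 87.2, 108 and 143 CPM in WT, and the groups overlapped (log2 -0.01, adjusted p = 0.971).

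Col19a1 encodes a fibril-associated collagen (chr1:24261890-24587472). It had 60.2, 80.5 and 134 CPM in KI hematopoietic and 19.7, 31.6 and 49.7 CPM in WT hematopoietic libraries, again with no overlap, and KI replicate 6 was the highest. Its log2 fold change was 1.47 (SE 0.24, edgeR adjusted p = 0.00145), at 1.28 in prefix 1 (adjusted p = 0.0376) and 1.67 in prefix 2 (0.0680). Mesenchymal libraries held 1 to 14 counts of Col19a1 in KI and 0 to 8 in WT, so it was not tested there. None of the 12 fits that left out a single hematopoietic library ended the call of Col18a1, Col27a1 or Col19a1.

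**Figure D2:**
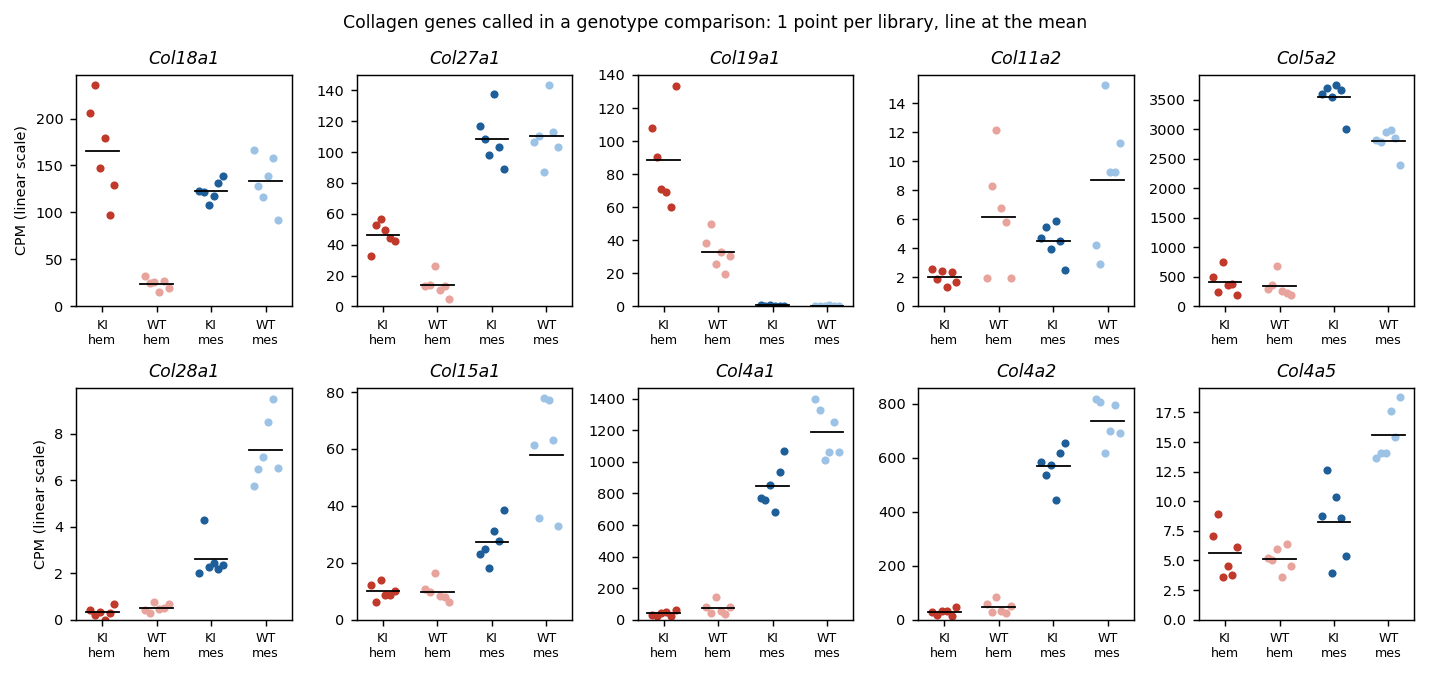
CPM (linear axis) of the 10 collagen genes called in a genotype comparison, in every library (points, drawn in replicate order) with the group mean (line), KI left of WT for hematopoietic (hem) and mesenchymal (mes) libraries. Col18a1, Col27a1 and Col19a1 separate KI from WT in hematopoietic libraries, while Col28a1, Col4a5 and Col5a2 separate them in mesenchymal libraries.

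Col11a2, a chain of the cartilage collagen type XI, had 1.32, 2.13 and 2.59 CPM in KI hematopoietic and 1.94, 6.32 and 12.1 CPM in WT hematopoietic libraries. The groups overlapped: WT replicates 1 and 6 lay among the KI libraries, and the other 4 WT libraries lay above all of them. The log2 fold change was -1.55 (SE 0.40, edgeR adjusted p = 0.0188), on 20 to 32 counts per KI library and 19 to 128 per WT library. Without WT replicate 4 it no longer passed (adjusted p = 0.0505), nor within either prefix alone (log2 -1.66 and -1.43, adjusted p = 0.172 and 0.208). In the same libraries osteoblast markers summed to 645 to 1273 CPM in KI and 370 to 1493 CPM in WT. Of 6 tested, 3 (Sp7, Runx2 and Alpl) were called lower in KI, beside 6.89% of all genes. Chondrocyte markers summed to 3.01 to 8.39 CPM in KI and 4.43 to 22.2 CPM in WT. The part of both marker sets in the Col11a2 value was not tested.

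The major collagens of the hematopoietic libraries did not pass the test. Col1a1 had 679.7, 1987 and 4990.0 CPM in KI and 721, 1985 and 5079.7 CPM in WT hematopoietic libraries, with replicate 3 highest and replicate 6 lowest in each genotype (log2 -0.02, SE 0.45, edgeR adjusted p = 0.985). Col3a1, the main partner of type I in soft tissue, was at log2 0.61 (SE 0.55) and Col5a3 at 1.42 (SE 0.53, adjusted p = 0.0961). Of the 3 tested type IV genes, Col4a1 was at -0.82 (SE 0.36, adjusted p = 0.160) and Col4a2 at -0.69 (SE 0.35, adjusted p = 0.223). With the replicate number as a block, 3 of these passed: Col5a3 (log2 1.30, adjusted p = 4.86e-04), Col4a1 (-0.76, adjusted p = 0.0308) and Col4a2 (-0.68, adjusted p = 0.0243). Over all genes, that block gave 1695 higher and 1620 lower, beside 1264 and 967 without it. Of the type VI genes, Col6a1 was at 0.45 without the block (SE 0.38, edgeR adjusted p = 0.495) and Col6a3 at 0.31 (SE 0.41, adjusted p = 0.674).

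Stromal marker RNA was present in the hematopoietic libraries beside collagen RNA. The summed level of 23 stromal marker genes ran from 438 to 1454 CPM in KI and from 406 to 1256 CPM in WT hematopoietic libraries, against 7365 to 8648 CPM in KI and 6329 to 7682 CPM in WT mesenchymal libraries. Replicate 3 had the highest sum and the highest collagen share in each genotype, at 1454 CPM and 1.43% in KI and 1256 CPM and 1.35% in WT. In hematopoietic libraries 18 of the 23 averaged at least 1 CPM in each genotype, and Mfap4 was at 0 in every KI library. Of the 19 tested there, 1 was called, Nt5e, higher in KI, beside 9.01% of all genes called higher and 6.89% called lower. The leukocyte sum of the same libraries was 19001 to 28430 CPM in KI and 12950 to 20990 CPM in WT, but its 15 tested members went both ways. Of them, 3 were called higher in KI (Itgb2, Lyz2 and Rac2) and 4 lower (Cd53, Fcer1g, Coro1a and Laptm5), beside the same 9.01% and 6.89% of all genes. The endothelial sum was 25.4 to 58.8 CPM in KI and 19.5 to 34.0 CPM in WT, with 1 of 5 tested members, Vwf, called higher in KI. With the stromal sum as a covariate, the log2 fold changes were 2.86 for Col18a1, 1.77 for Col27a1 and 1.60 for Col19a1, and each still passed the test. In that fit Col11a2 was at -1.65, and the network genes Col8a1 (log2 -0.98, edgeR adjusted p = 0.0125) and Col8a2 (-2.10, adjusted p = 0.0437) were also called lower in KI. The part of leukocyte and endothelial RNA in these values was not tested.

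Another description of the same libraries is the hematopoietic level of a gene as a percent of its mesenchymal level in the same genotype. For the 19 stromal markers at 10 CPM or more in mesenchymal libraries, the median was 10.4% in KI (range 5.59% to 161%) and 8.26% in WT (5.10% to 50.5%), with Nt5e highest in each. For collagen genes at that level the median was 11.6% in KI (22 genes) and 11.4% in WT (24 genes). Col18a1 stood at 134% in KI and 18.1% in WT, and Col27a1 at 42.6% in KI and 12.4% in WT. Col1a1 stood at 12.5% in KI and 15.7% in WT. All 3 genes lay within the range of the stromal markers. The upper end of that range is 1 gene, Nt5e, which was itself called higher in KI hematopoietic libraries.

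**Figure D3:**
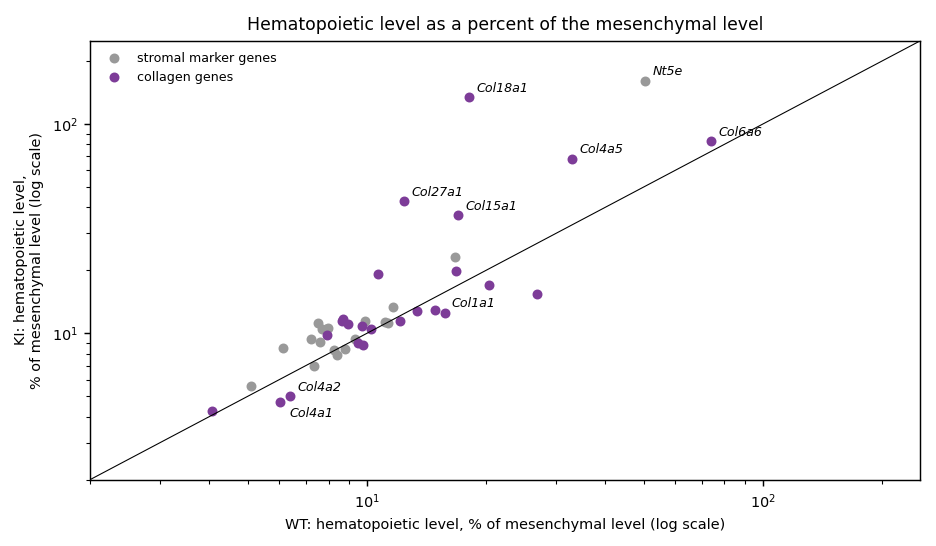
Hematopoietic level as a percent of the mesenchymal level, KI on the vertical and WT on the horizontal axis (both log), for 24 collagen genes and 19 stromal marker genes reaching 10 CPM in the mesenchymal libraries of either genotype; the line marks equal percents. Col18a1 (134% in KI, 18.1% in WT) lies farthest above the line, and Col1a1 and most collagen genes lie among the stromal markers.

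In mesenchymal libraries, 5 collagen genes fell in KI against WT and 1 rose. All 3 tested type IV genes were among those that fell, with log2 fold changes of -0.49 for Col4a1, -0.37 for Col4a2 and -0.90 for Col4a5. Col28a1 (-1.49) and Col15a1 (-1.11) fell further, and Col5a2 rose by 0.35. These 6 calls are 17.1% of the 35 tested collagen genes, beside 7.27% of all 13867 genes tested; the 5 falls stand beside 3.83% of all genes called lower and the 1 rise beside 3.44% called higher. The median log2 fold change was -0.26 over the tested collagen genes and 0.00 over all genes.

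Col4a1 and Col4a2 encode the chains that form the common type IV collagen of basement membranes. Col4a1 had 680.4, 812 and 1068 CPM in KI mesenchymal and 1009, 1159.7 and 1400.5 CPM in WT mesenchymal libraries. KI replicate 6 lay above the 3 lowest WT libraries, and the other 5 KI libraries lay below all WT libraries. The log2 fold change was -0.49 (SE 0.12, edgeR adjusted p = 0.0282). Col4a2 had 444, 579.5 and 655 CPM in KI and 618, 746 and 819 CPM in WT mesenchymal libraries, where KI replicates 5 and 6 lay above the lowest WT library, replicate 3 (log2 -0.37, SE 0.10, adjusted p = 0.0459). Their ratio per kb was 1.31 ± 0.0935 in KI and 1.42 ± 0.0621 in WT mesenchymal libraries. The genes lie head to head on chromosome 8 of GRCm38, with start sites at 11312826 for Col4a1 (minus strand) and 11312805 for Col4a2 (plus strand), and their annotated exons share 22 bases.

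Both calls were close to the threshold. Over 21 alternative fits, the call was lost in 9 for Col4a1 and in 16 for Col4a2. In 1 fit of all 24 libraries both calls were lost. Col4a1 was lost without any of KI replicates 1, 2 and 4 or WT replicates 1, 2 and 5, with log2 fold changes of -0.57 to -0.43 over all 12 such fits and adjusted p up to 0.0771. Col4a2 was kept only without KI replicate 6 or WT replicate 3, with log2 fold changes of -0.42 to -0.31 and adjusted p up to 0.101. Within name prefix 1 and prefix 2, Col4a1 was at -0.66 and -0.32 (adjusted p = 0.0746 and 0.482), and Col4a2 at -0.41 and -0.33 (adjusted p = 0.204 and 0.409). Summed over the 6 type IV genes, 0.141 ± 0.0238% of counts fell on type IV collagen in KI mesenchymal and 0.195 ± 0.0260% in WT mesenchymal libraries.

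Col4a5 encodes a chain of the specialized type IV network that is altered in Alport kidney disease; it lies on the X chromosome (chrX:141475385-141689234) beside Col4a6, whose counts were too low to test. It had 3.98, 8.65 and 12.7 CPM in KI mesenchymal and 13.7, 14.8 and 18.8 CPM in WT mesenchymal libraries. The groups did not overlap, as for 2.08% of all genes in that direction. The log2 fold change was -0.90 (SE 0.23, edgeR adjusted p = 0.0299), with -0.73 in prefix 1 and -1.07 in prefix 2 (adjusted p = 0.345 and 0.104). The call was lost without any of KI replicates 1 and 5 or WT replicates 1, 4, 5 and 6, where adjusted p reached 0.0674 and the log2 fold change stayed between -1.10 and -0.76. In hematopoietic libraries Col4a5 had 3.58, 5.301 and 8.904 CPM in KI and 3.63, 5.16 and 6.403 CPM in WT (log2 0.14, adjusted p = 0.749).

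Col15a1 encodes type XV collagen, the multiplexin related to Col18a1. It had 18.02, 26.2 and 38.6 CPM in KI mesenchymal and 32.8, 62.2 and 77.9 CPM in WT mesenchymal libraries; WT replicates 2 and 6 lay among the KI values, and the other 4 WT libraries had 61.4 CPM or more. The log2 fold change was -1.11 (SE 0.24, edgeR adjusted p = 0.0162), with -1.41 in prefix 1 (adjusted p = 0.0443) and -0.82 in prefix 2 (0.341). Hematopoietic libraries had 6.203, 9.51 and 13.98 CPM in KI and 6.05, 9.01 and 16.3 CPM in WT (log2 0.07, adjusted p = 0.864). The call was lost without the filter on low counts (adjusted p = 0.0608). The multiplexins had different called genes in the populations: Col18a1 higher in KI hematopoietic libraries and Col15a1 lower in KI mesenchymal libraries.

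Col28a1 encodes a collagen with von Willebrand factor A domains, like those of type VI. It had 1.99, 2.304 and 4.31 CPM in KI mesenchymal and 5.75, 6.76 and 9.502 CPM in WT mesenchymal libraries, on 25 to 49 counts per KI library and 79 to 142 per WT library. The groups did not overlap, and KI replicate 2 was the highest KI library. The log2 fold change was -1.49 (SE 0.21, edgeR adjusted p = 0.00109), with -1.18 in prefix 1 (adjusted p = 0.102) and -1.80 in prefix 2 (0.0384). Its call and that of Col15a1 held in all 12 fits that left out 1 mesenchymal library.

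Col5a2, the type V chain that pairs with Col5a1 inside type I fibrils, had 3003, 3629 and 3747 CPM in KI mesenchymal and 2393, 2831 and 2992 CPM in WT mesenchymal libraries. Every KI library was above every WT library, as for 2.06% of all genes in that direction, and replicate 6 was the lowest library of each genotype. The rise was small, at 0.35 on the log2 scale (SE 0.09, edgeR adjusted p = 0.0319). The call was lost without any of KI replicates 1, 2, 4 and 5 or WT replicates 1, 2, 5 and 6, with adjusted p up to 0.0798 and log2 fold changes of 0.31 to 0.39. In prefix 1 and prefix 2 alone it was at 0.34 and 0.35 (adjusted p = 0.296 and 0.338). The partner Col5a1 had 2797, 4769.9 and 6911 CPM in KI and 2919, 3787 and 4997 CPM in WT mesenchymal libraries (log2 0.36, SE 0.19, adjusted p = 0.300), and Col5a3 was at log2 0.59 (SE 0.29).

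**Figure D4:**
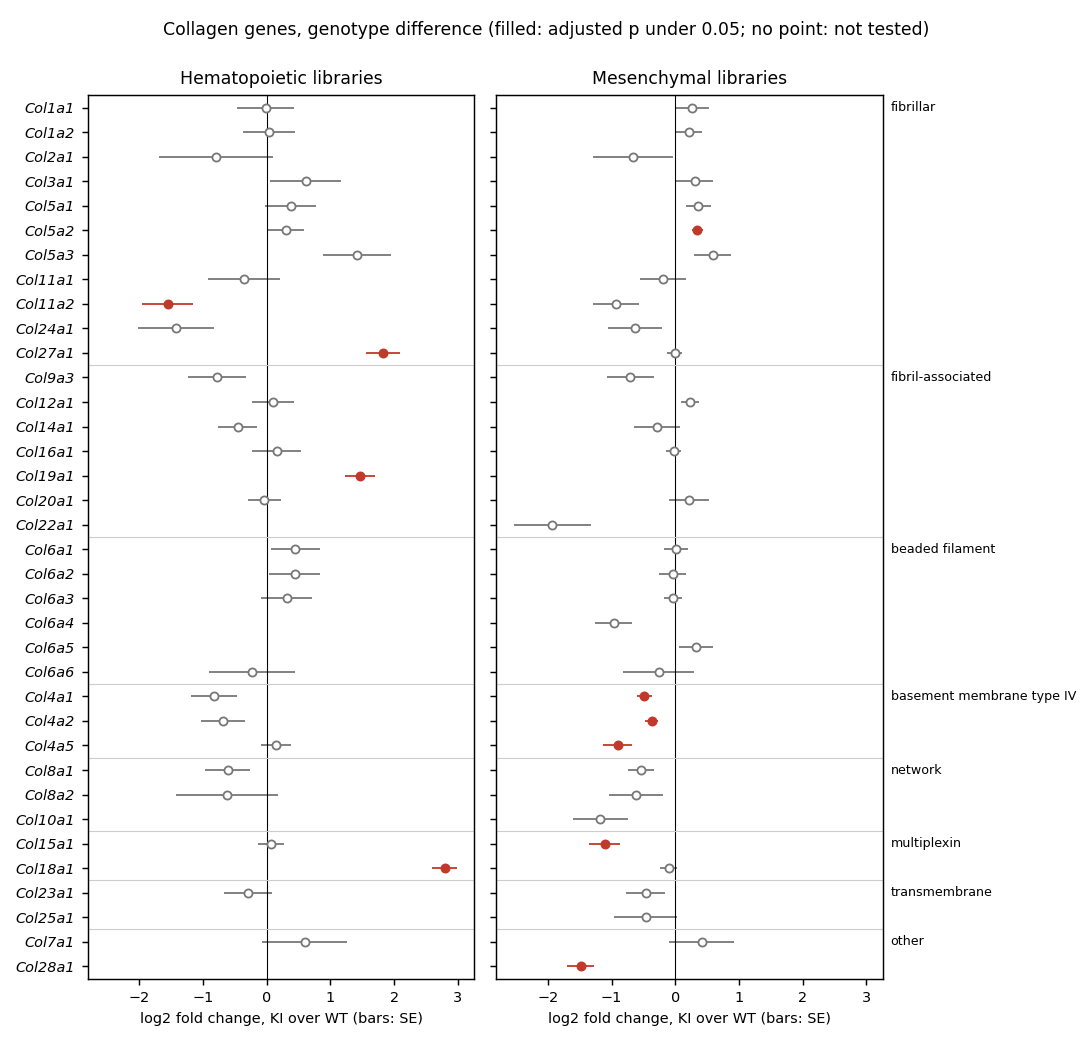
Log2 fold change, KI over WT, of each tested collagen gene in hematopoietic (left) and mesenchymal (right) libraries, grouped by class, with bars for the SE and filled points for an adjusted p under 0.05. In mesenchymal libraries the 3 type IV genes lie left of 0 and are filled, and in hematopoietic libraries the filled points right of 0 are Col18a1, Col27a1 and Col19a1.

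Other abundant collagens of mesenchymal libraries did not pass. Col12a1, a fibril-associated collagen, had 4152, 6233 and 8402 CPM in KI and 4623, 5363 and 6069 CPM in WT (log2 0.23, SE 0.15). Col3a1 had 1960.5, 3614 and 5850.0 CPM in KI and 2087, 3170.2 and 3770.3 CPM in WT (log2 0.30, SE 0.29), and its 3 highest libraries were KI replicates 3, 4 and 5. The abundant type VI genes had fold changes near 0: Col6a1 had 1182, 1689 and 2259 CPM in KI and 1177, 1844 and 2051 CPM in WT (log2 0.01), and Col6a3 had 2427, 3128 and 4032 CPM in KI and 2481, 3464 and 4275 CPM in WT (log2 -0.04, SE 0.15). Col8a1, a network collagen, had 710.1, 890.4 and 1274 CPM in KI and 796, 1303 and 2093 CPM in WT mesenchymal libraries, with WT replicate 1 highest (log2 -0.54, SE 0.20, edgeR adjusted p = 0.131). Just outside the threshold were the low genes Col6a4 (log2 -0.96, adjusted p = 0.0579) and Col22a1 (-1.93, adjusted p = 0.0722). Cartilage collagen Col2a1 was variable, with 41.9, 119 and 778 CPM in KI and 161, 274 and 615 CPM in WT mesenchymal libraries and KI replicate 5 highest of all (log2 -0.66, SE 0.63).

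Of the network genes in mesenchymal libraries, Col8a2 had a log2 fold change of -0.62 (SE 0.42, edgeR adjusted p = 0.434) and Col10a1, a collagen of hypertrophic cartilage, -1.17 (SE 0.43, adjusted p = 0.118). The network class held 0.0921 ± 0.0196% of counts in KI mesenchymal and 0.138 ± 0.0441% in WT mesenchymal libraries, and its groups overlapped. Of the 4 transmembrane genes, 2 were tested in mesenchymal libraries, Col23a1 (-0.47, SE 0.30) and Col25a1 (-0.46, SE 0.49). Col7a1, which anchors epithelium to the tissue beneath, was at 0.42 (SE 0.51). Among fibril-associated genes the mesenchymal fold changes ran from -1.93 for Col22a1 to 0.23 for Col12a1.

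Markers of bone and fat cells moved with genotype in the same mesenchymal libraries. The summed level of 10 osteoblast genes was 1595 to 2860 CPM in KI and 2898 to 5549 CPM in WT mesenchymal libraries, and all 6 tested members were called lower, among them Runx2, Alpl and Ibsp, beside 3.83% of all genes. The adipocyte sum over 7 genes was 91.1 to 208 CPM in KI and 296 to 578 CPM in WT, with 4 of 5 tested members called lower (Adipoq, Lpl, Fabp4 and Lepr). Chondrocyte markers summed to 8.69 to 27.7 CPM in KI and 15.7 to 50.2 CPM in WT, with 1 of 5 tested members (Comp) called lower. The same 3.83% of all genes called lower stands beside the adipocyte and chondrocyte counts. Endothelial markers summed to 14.6 to 114 CPM in KI and 7.85 to 67.7 CPM in WT, and leukocyte markers to 46.4 to 162 CPM in KI and 41.7 to 105 CPM in WT. At 0 in every KI mesenchymal library were Ifitm5 and Bglap2 (osteoblast), Cidec (adipocyte), Matn1 and Snorc (chondrocyte) and Itgam (leukocyte), and in every WT mesenchymal library Chad (chondrocyte) and Itgam. The part of bone, fat, cartilage and endothelial cells in the collagen differences was not tested. With the leukocyte sum as a covariate, Col28a1, Col15a1 and Col4a1 still passed, while Col4a5 (log2 -0.86, edgeR adjusted p = 0.0545), Col4a2 (-0.36, adjusted p = 0.0656) and Col5a2 (0.31, adjusted p = 0.0547) did not, with fold changes close to those without it, and Col6a4 was called lower in KI (-1.13, adjusted p = 0.0382).

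The genotype difference itself differed between the populations for 2 of the 37 tested collagen genes, beside 7.28% of all 15389 genes; both lay in the direction of 4.36% of all genes. This contrast is the KI over WT difference in mesenchymal libraries minus that in hematopoietic libraries, so a negative value means a larger KI over WT value in hematopoietic libraries. It was -2.88 for Col18a1 (SE 0.25, edgeR adjusted p = 8.82e-07) and -1.81 for Col27a1 (SE 0.32, adjusted p = 8.10e-04). For Col18a1 it was -3.03 in prefix 1 and -2.74 in prefix 2, and for Col27a1 -1.33 in prefix 1 (adjusted p = 0.122) and -2.34 in prefix 2 (0.0258). None of the genes called in mesenchymal libraries passed: the contrast was -1.11 for Col15a1 (adjusted p = 0.0599), -1.06 for Col4a5 (0.0632), -0.85 for Col28a1 (0.423), 0.36 for Col4a1 (0.695), 0.34 for Col4a2 (0.696) and 0.06 for Col5a2 (0.960). Their differences are not shown to be limited to mesenchymal cells. With DESeq2 as the test, Col15a1 (log2 -1.10, DESeq2 adjusted p = 0.0284) and Col4a5 (-1.03, adjusted p = 0.0367) did pass. Col28a1 had 0 to 9 counts per KI and 4 to 9 per WT hematopoietic library and was not tested there. Its contrast cannot decide the question, since the hematopoietic side lies at the floor of the counts.

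Between the sorted populations, most collagen genes were higher in mesenchymal libraries. In KI, 29 of the 37 tested collagen genes were called higher in mesenchymal libraries and 3 lower, beside 33.9% and 39.1% of all genes (73% in either direction). In WT, 29 were called higher and 3 lower, beside 35.4% and 38% of all genes (73.5% in either direction). The populations did not overlap, with mesenchymal libraries higher, for 22 collagen genes in KI and 27 in WT, beside 23.8% of all genes in KI and 23.9% in WT. The median log2 fold change, mesenchymal over hematopoietic, was 2.76 for tested collagen genes in KI and 3.04 in WT, beside -0.07 and -0.03 over all genes. These comparisons use the libraries of the genotype comparisons again, and the populations were chosen by a sort, so they describe what the sort separated. Some collagen genes entered this test only through the population in which they were high.

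Type IV genes had the highest median step among classes with more than 2 tested genes, at 4.32 in KI and 3.98 in WT. That median covers 3 genes, and the step was steep for Col4a1 and Col4a2 but small for Col4a5. Col4a5 averaged 8.29 CPM in KI mesenchymal and 5.66 in KI hematopoietic libraries. In WT it averaged 15.6 CPM in mesenchymal and 5.14 in hematopoietic libraries. Col4a1 was 4.41 (SE 0.31) in KI and 4.05 (SE 0.31) in WT, from 845 ± 140.5 CPM in KI mesenchymal and 39.6 ± 15.2 CPM in KI hematopoietic libraries. Fibrillar genes had a median of 2.99 in KI and 3.02 in WT, with Col1a1 at 3.02 in KI and 2.72 in WT. Beaded-filament genes had medians of 3.16 in KI and 3.65 in WT, and network genes 3.49 in KI and 3.41 in WT. Fibril-associated genes were split, with 2 called higher and 2 lower in KI and 2 higher and 3 lower in WT.

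A few collagen genes ran the other way, with more RNA in hematopoietic libraries. Col19a1 was -7.32 (SE 0.35, edgeR adjusted p = 1.12e-14) in KI and -6.73 (SE 0.38, adjusted p = 1.66e-13) in WT, mesenchymal over hematopoietic. It passed the filter through its hematopoietic counts alone. Col14a1, a fibril-associated collagen of tendon and skin, had 0.949, 1.63 and 3.38 CPM in KI mesenchymal and 4.45, 7.39 and 16.6 CPM in KI hematopoietic libraries (log2 -2.24, SE 0.35), and 1.27, 2.15 and 3.35 CPM in WT mesenchymal and 6.27, 11.6 and 18.996 CPM in WT hematopoietic libraries (log2 -2.40, SE 0.35). For these genes the populations did not overlap in either genotype, as for 27.5% of all genes in KI and 27.9% in WT in that direction. Col20a1 was called in WT (-0.92, edgeR adjusted p = 0.0106) and not in KI (-0.67, adjusted p = 0.0557), with an interaction of 0.25 (adjusted p = 0.828); 79 of its exon bases overlap another annotated gene on the same strand, so its counts are uncertain.

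For Col18a1 this step differed by genotype, as the interaction shows. In WT it was 2.48 (SE 0.19, edgeR adjusted p = 3.60e-11), higher in mesenchymal libraries. In KI it was -0.40 (SE 0.18, adjusted p = 0.0441), with KI mesenchymal libraries inside the range of KI hematopoietic ones. The KI call was lost in 4 of 7 alternative treatments of the data; within name prefix 2 it was -0.07 (adjusted p = 0.830) and within prefix 1 it was -0.70 (adjusted p = 0.00456). Col27a1 stayed higher in mesenchymal libraries, by 1.23 (SE 0.22) in KI and 3.04 (SE 0.24) in WT.

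Genes that process collagen were followed as a list of 36, of which 35 were tested in each population. In mesenchymal libraries 3 rose in KI and 2 fell, beside 3.44% of all genes called higher and 3.83% called lower, and the median log2 fold change of the 35 was 0.08. Loxl2, a lysyl oxidase that crosslinks type IV collagen, averaged 794 ± 94.5 CPM in KI and 487 ± 57.9 CPM in WT mesenchymal libraries (log2 0.71, SE 0.09, edgeR adjusted p = 4.08e-04). Adamts14 and Adamts3, proteases that trim the ends of procollagen, rose by 1.09 (SE 0.16, adjusted p = 0.00167) and 0.70 (SE 0.19, adjusted p = 0.0422). P3h2, a prolyl hydroxylase that acts on type IV collagen, averaged 7.33 ± 2.52 CPM in KI and 15.3 ± 2.88 CPM in WT (log2 -1.07, SE 0.20, adjusted p = 0.00633), and the crosslinking enzyme Lox averaged 2944 ± 374 CPM in KI and 3855 ± 342 CPM in WT (log2 -0.38, SE 0.09, adjusted p = 0.0197). Serpinh1, the collagen chaperone HSP47, was at -0.12 (SE 0.14) and did not pass.

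In hematopoietic libraries 2 of the 35 tested processing genes rose in KI, a smaller share than the 9.01% of all genes called higher, with a median log2 fold change of 0.07. Adamts14 averaged 6.26 ± 1.91 CPM in KI and 2.64 ± 1.35 CPM in WT hematopoietic libraries (log2 1.30, SE 0.23, edgeR adjusted p = 0.00212). Plod3, a lysyl hydroxylase that also adds sugars to collagen, rose by 0.33 (SE 0.08, adjusted p = 0.0105). Adamts14 was thus called higher in KI in both populations. It was also called higher in mesenchymal than in hematopoietic libraries of each genotype. The part of stromal RNA in its hematopoietic value was not tested.

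Of 12 tested receptors and uptake proteins for collagen, 2 were called higher and 2 lower in KI hematopoietic libraries, beside 9.01% and 6.89% of all genes, with a median log2 fold change of 0.12. Itga2, the collagen-binding integrin chain, averaged 22.9 ± 10.1 CPM in KI and 1.94 ± 1.195 CPM in WT (log2 3.55, SE 0.49, edgeR adjusted p = 6.04e-04). Oscar, a collagen receptor of osteoclast precursors, averaged 10.4 ± 3.51 CPM in KI and 1.67 ± 2.04 CPM in WT (log2 2.64, SE 0.72, adjusted p = 0.0268). Mrc1, the macrophage mannose receptor that also takes up collagen, averaged 825 ± 180.1 CPM in KI and 2302 ± 352 CPM in WT (log2 -1.47, SE 0.15, adjusted p = 6.78e-05). Lair1, an inhibitory collagen receptor of leukocytes, averaged 115 ± 25.6 CPM in KI and 223 ± 27.8 CPM in WT (log2 -0.94, SE 0.14, adjusted p = 6.19e-04). In mesenchymal libraries, where their median was 0.06, 1 of 10 tested was higher, the uptake receptor Mrc2 (log2 0.27, edgeR adjusted p = 0.0464). Another was lower, the integrin chain Itga10 (-1.35, edgeR adjusted p = 0.0448). Beside these stand 3.44% of all genes called higher and 3.83% called lower in mesenchymal libraries. Among 15 matrix genes whose products bind fibrils, 14 were tested in each population. In mesenchymal libraries Comp (log2 -2.91, SE 0.33) and Fbn2 (-1.21, SE 0.25) fell in KI, beside 3.83% of all genes called lower. None of the 14 was called in hematopoietic libraries. The median of the 14 was 0.10 in hematopoietic and -0.01 in mesenchymal libraries.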

How the data were processed

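RNA-seq libraries were made from ribosomal RNA depleted total RNA with a stranded kit and sequenced paired-end, per the labels' protocols. The authors deposited one table of whole-number read counts per gene for each library, in Ensembl gene identifiers. HTSeq 0.9.1 on GRCm38 is named in the submitters' processing notes, beside DESeq2 1.20.0, MultiQC and FastQC 0.11.7; for the aligner and the strand setting, the sources used here give no name or value. If strand was ignored, reads of overlapping genes cannot be told apart.

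Identifiers were matched to GENCODE vM21 (54165 of 54232 matched), and 31499 had 1 count or more. Library totals of 9875390 to 15826711 counts set the precision. Replicate pairs differed beyond sampling noise, with chi-square per degree of freedom of 7.23 to 65.0 over 60 pairs, so no pair looked like 1 library deposited again; this does not show that replicates are independent.

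The counts were tested with edgeR 4.0.16 (quasi-likelihood, robust, trimmed mean of M-values scaling) in R 4.3.3, after a filter on low counts by group (at least 10 counts at the median depth and 15 in total), with the name prefix as a term. Genotype was compared within each population over 12 libraries; the interaction and the populations were compared over all 24. The Benjamini-Hochberg adjustment ran over all tested genes, with calls at an adjusted p under 0.05. The SE is the fold change divided by the square root of F. The fits were also run on simulated data with known changes, and the outcome of those runs is not reported here. Alternatives were DESeq2 1.42.0, its size factors, no filter, no prefix term, each prefix alone, 1 fit of all 24 libraries, marker sums as covariates, a replicate block and leaving out each library. CPM per kb used the union of annotated exons.

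Named genes were every collagen gene called between genotypes and the 10 highest per kb; other genes were named from their lists after their values were seen. The collagen genes, classes, pathway lists and marker lists were chosen with earlier results of these data known.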

Additional observations from a re-analysis of the deposited data

Results flagged for a closer look

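Among 18 collagen genes and the collagen share, 76 groups of 6 libraries were searched for a library far from the others by Dixon's test. Chance flags about 1 in 20 groups. In WT hematopoietic libraries, replicate 3 stood above the rest for 4 genes, with 966 CPM of Col12a1, 688 CPM of Col5a2, 322 CPM of Col6a1 and 579 CPM of Col6a3. KI hematopoietic replicate 3 had 1393 CPM of Col5a1. These 2 libraries also had the highest stromal marker sums of their groups, 1454 CPM in KI and 1256 CPM in WT, and the part of that in these values was not tested. Col5a2 was low in replicate 6 of the mesenchymal libraries, with 3003 CPM in KI and 2393 CPM in WT. Col28a1 was high in KI mesenchymal replicate 2, with 4.31 CPM.

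The genotype difference differed between the populations, by the interaction test, for Col18a1 (log2 -2.88) and Col27a1 (log2 -1.81).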

How the results depend on the processing

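No collagen gene called between genotypes or in the interaction changed sign for that call in any alternative run that tested it. In the comparisons of populations, a chosen set of collagen genes was followed, without the runs that left out 1 library, and none changed sign. Other collagen genes were not checked for a change of sign. In hematopoietic libraries, the count of collagen genes called lower in KI, 1 in the reported fit, was 3 with DESeq2, 2 without the filter, 2 and 0 in name prefix 1 and prefix 2 alone, 4 in 1 fit of all 24 libraries and 3 with the stromal covariate. In mesenchymal libraries, the 1 gene called higher was 0 in each prefix alone, in the 24-library fit and with the leukocyte covariate, and the 5 called lower were 3 in prefix 1, 1 in prefix 2 and 3 in the 24-library fit. The 2 interaction calls were 4 with DESeq2, which added Col15a1 and Col4a5, and 1 in prefix 1. Over all genes, the interaction gave 450 higher and 671 lower in the reported fit. DESeq2 gave 687 and 817, and prefix 1 gave 56 and 124. Over all genes in hematopoietic libraries, 967 of 14030 were called lower in the reported fit. DESeq2 gave 1294 of 18156, and the fit without the filter 832 of 28770. Prefix 1 gave 255, prefix 2 gave 58, the 24-library fit 1111 and the stromal covariate 1069. Fewer libraries entered each prefix fit.

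Leaving out 1 library gave 3 to 4 higher and 0 to 3 lower in hematopoietic libraries (0 without WT replicate 4, 2 without KI replicate 1, 2, 3, 5 or 6, and 3 without KI replicate 4 or WT replicate 6). In mesenchymal libraries it gave 0 to 2 higher (0 without KI replicate 1, 2, 4 or 5 or WT replicate 1, 2, 5 or 6, and 2 without KI replicate 6) and 2 to 6 lower (2 without KI replicate 1 or WT replicate 5, and 3 without KI replicate 2 or WT replicate 1, 4 or 6). The interaction gave 2 to 3 lower. Mesenchymal over hematopoietic stayed at 27 to 29 higher and 2 to 4 lower in KI and at 29 higher and 3 lower in WT. Over all genes, leaving out 1 library gave 1027 to 1322 higher and 681 to 889 lower in hematopoietic libraries. In mesenchymal libraries it gave 301 to 505 higher and 345 to 531 lower.

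With a replicate block, the counts were 4 higher and 3 lower in hematopoietic libraries, 1 higher and 6 lower in mesenchymal libraries, and 2 lower in the interaction. The genes gained were Col5a3, Col4a1 and Col4a2 in hematopoietic libraries and Col6a4 and Col10a1 in mesenchymal libraries. Over all genes, the block gave 1695 higher and 1620 lower in hematopoietic libraries, beside 1264 and 967 in the reported fit. In mesenchymal libraries it gave 654 and 604, beside 477 and 531. As deviations from group means, same-numbered KI and WT libraries correlated at 0.0851 to 0.522 (hematopoietic) and -0.0459 to 0.419 (mesenchymal); with the name prefix also removed, at 0.105 to 0.479 and 0.0158 to 0.438. Not every library correlated best with its own number, and no label says that a number marks a pairing, so a pairing of hematopoietic libraries is a hint from the data only. Under the block Col15a1 in mesenchymal libraries had an edgeR adjusted p of 0.0778, and without the filter 0.0608. Col11a2 and Col28a1 rest on few counts per library.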
